A study of Homo sapiens with 8 samples.

Results

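HLA-B, HLA-C, HLA-E, B2M, TAP1, TAP2, TAPBP and NLRC5, 8 genes of MHC class I antigen presentation, were taken by symbol from an RNA-seq table of 60612 genes, with no threshold on a measured value. All 8 reached a mean of at least 1 FPKM over the 8 libraries, as did 12649 genes of the table. FPKM is the number of sequenced fragments scaled by transcript length and by the size of the library, so levels can be set side by side between genes. The libraries came from 2 established human bladder cancer cell lines, 5637 grown in RPMI and UM-UC3 grown in MEM, which received DMSO (0 mM) or 1, 2 or 4 mM melatonin for 24 h. Each line and dose had 1 library, so line and medium cannot be told apart and no dose had a replicate. The p-values therefore measure the spread of single libraries around a straight line over dose, and not the spread between cultures. Depth is unknown, since the values are not counts.

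MHC class I molecules show short peptides from inside the cell to cytotoxic T cells and natural killer cells. A heavy chain (HLA-B, HLA-C or HLA-E here) pairs with the light chain beta-2-microglobulin, encoded by B2M. Peptides cut by the proteasome enter the endoplasmic reticulum through the transporter made of TAP1 and TAP2, and tapasin, encoded by TAPBP, bridges the transporter and the empty heavy chain while peptides are loaded. NLRC5 is the class I transactivator, which joins RFX, NF-Y and CREB/ATF factors on class I promoters. Interferons raise transcription of the whole set, and loss of these genes is a known route by which tumours, bladder cancer included, escape T cells.

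The labelled cells were first checked against marker genes. The summed level of 15 urothelial and epithelial markers was 3626, 3266, 2580 and 976.1 FPKM in 5637 cells at 0, 1, 2 and 4 mM, and 205.9, 178.5, 129.2 and 98.75 FPKM in UM-UC3 cells. The sum thus declined with every dose step in both lines, and of the 10 markers tested 7 fell and 1 rose in 5637 cells, where 20.4% of all genes fell and 23% rose. In UM-UC3 cells 2 of the 10 fell and 8 were not called, with 16.7% of all genes falling. KRT5, KRT13, KRT19, EPCAM, CDH1 and GATA3 averaged at most 0.469 FPKM in UM-UC3 cells. They reached the mean of 1 FPKM needed for testing through 5637 cells alone. The 1 added to each FPKM before the logarithm holds their UM-UC3 slopes near 0. The marker counts of both lines include these genes, so nothing is read from the counts. UM-UC3 cells carried KRT8 (48.0 to 55.5 FPKM) and KRT18, which went from 149 FPKM on DMSO to 43.6 FPKM at 4 mM, but EPCAM and CDH1 did not exceed 0.165 and 0.105 FPKM there. The uroplakin genes UPK1A, UPK1B, UPK2 and UPK3A, markers of differentiated urothelium, stayed at or below 0.222 FPKM in all 8 libraries. None of 11 leukocyte markers reached a mean of 1 FPKM, and 4 of them were listed at 0 in every library. TIE1 of 6 endothelial markers and COL1A1 and COL3A1 of 7 fibroblast markers did reach it, and TIE1 and COL3A1 were highest in UM-UC3 cells on DMSO. The part of these marker changes in the values below was not tested. In bulk RNA a change in the mix of cells and a change per cell cannot be told apart.

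The 200 bases before the start sites of 6 of the 8 genes are shown because this stretch of class I promoters is where interferon-driven factors and the NLRC5 partners are known to bind (RefSeq, GRCh38.p14, gene strand, 5′ to 3′, first start site for TAP1). Capitals mark matches on either strand to GAAANNGAA (core of the interferon-stimulated response element), GAANNGAAA (its other form, searched after the promoters had been read), TTCNNNGAA (STAT site), CCAAT (the NF-Y site of the Y box), TGACG (core of the X2 box) and the NF-kappaB consensus. HLA-B lies at chr6:31357180-31357379, HLA-C at chr6:31272093-31272292, B2M at chr15:44711317-44711516, TAP1 at chr6:32853705-32853904, TAP2 at chr6:32838740-32838939 and TAPBP at chr6:33314079-33314278, with B2M on the plus strand and the others on the minus strand.
HLA-B: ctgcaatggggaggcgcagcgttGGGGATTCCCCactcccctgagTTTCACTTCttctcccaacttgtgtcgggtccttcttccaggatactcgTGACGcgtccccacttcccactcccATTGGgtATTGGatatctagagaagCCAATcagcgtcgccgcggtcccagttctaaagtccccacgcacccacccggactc
HLA-C: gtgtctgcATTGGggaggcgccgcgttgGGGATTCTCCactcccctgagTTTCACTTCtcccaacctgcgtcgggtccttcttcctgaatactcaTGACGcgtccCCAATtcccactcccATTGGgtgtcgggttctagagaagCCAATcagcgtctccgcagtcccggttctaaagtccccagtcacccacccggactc
B2M: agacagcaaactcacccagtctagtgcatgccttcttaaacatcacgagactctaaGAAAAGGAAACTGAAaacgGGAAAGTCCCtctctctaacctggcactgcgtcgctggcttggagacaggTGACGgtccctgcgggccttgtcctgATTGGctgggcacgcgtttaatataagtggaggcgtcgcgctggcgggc
TAP1: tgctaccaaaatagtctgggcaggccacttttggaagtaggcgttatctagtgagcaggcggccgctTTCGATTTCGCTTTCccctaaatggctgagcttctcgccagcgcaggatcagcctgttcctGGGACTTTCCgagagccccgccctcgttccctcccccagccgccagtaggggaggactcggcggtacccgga
TAP2: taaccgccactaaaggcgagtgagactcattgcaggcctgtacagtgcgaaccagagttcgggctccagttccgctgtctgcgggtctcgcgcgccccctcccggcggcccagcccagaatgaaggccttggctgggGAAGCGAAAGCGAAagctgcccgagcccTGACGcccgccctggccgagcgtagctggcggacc
TAPBP: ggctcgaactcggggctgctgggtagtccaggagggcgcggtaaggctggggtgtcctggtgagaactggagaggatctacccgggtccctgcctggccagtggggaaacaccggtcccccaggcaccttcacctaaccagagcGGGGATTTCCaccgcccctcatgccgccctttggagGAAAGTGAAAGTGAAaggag

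In these promoters, searched from 250 bases before to 50 after the start, B2M, TAP1, TAP2 and TAPBP each held GAAANNGAA, which 8.11% of 35116 promoters of the same length hold. In B2M, TAP1 and TAPBP 2 matches overlapped by 3 bases. HLA-B and HLA-C held GAANNGAAA instead (7.66% of promoters), and TAP2 held both forms overlapping. CCAAT, found in 34.6% of promoters, occurred 3 times in HLA-B, 4 times in HLA-C and once each in B2M and, beyond the printed bases, at the first TAP1 start. TAP2 and TAPBP had no CCAAT in the window. TGACG (24.6% of promoters) was present in HLA-B, HLA-C, B2M and TAP2, and the NF-kappaB consensus (11.3%) in HLA-B, HLA-C, B2M, TAP1 and TAPBP. TTCNNNGAA (7.66%) was found only at the second TAP1 start among the 7 windows searched for these genes. HLA-E and NLRC5 were not searched. A match of letters is a description of the window and not a binding site.

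**Figure D1:**
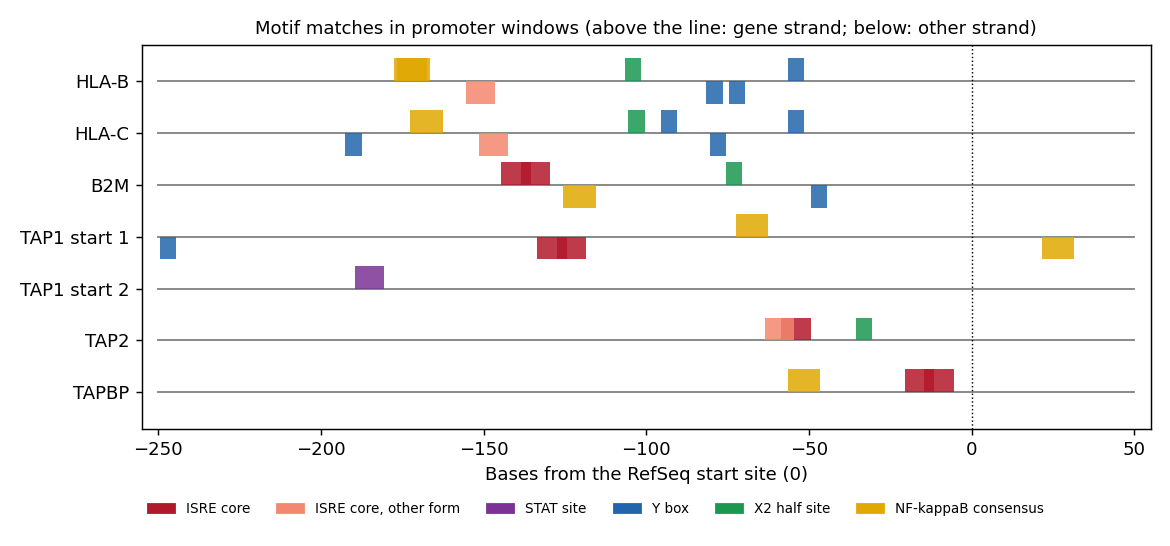
Motif matches in the promoter windows of 6 MHC class I genes (2 starts for TAP1), drawn by distance in bases from the RefSeq start site at 0, with boxes above the line for the gene strand and below for the other strand. CCAAT boxes are seen 3 times in HLA-B and 4 times in HLA-C, and TAP2 and TAPBP have none.

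The study asked how melatonin acts on bladder cancer cells, and the first comparison was the trend of each gene over dose in both lines together. HLA-C and HLA-E rose with dose, TAPBP and TAP2 fell, and HLA-B, B2M, TAP1 and NLRC5 did not pass the test. Among all 12649 genes tested 12.1% rose and 12.8% fell by the same rule (limma, adjusted p under 0.05). In either direction 4 of the 8 genes were called against 24.9% of all genes, a count too small to read further. The median fitted change from 0 to 4 mM was 0.03 for the 8 genes and -0.01 for all genes, on the log2(FPKM + 1) scale used for every fitted change here. The values of each gene follow by role.

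**Figure D2:**
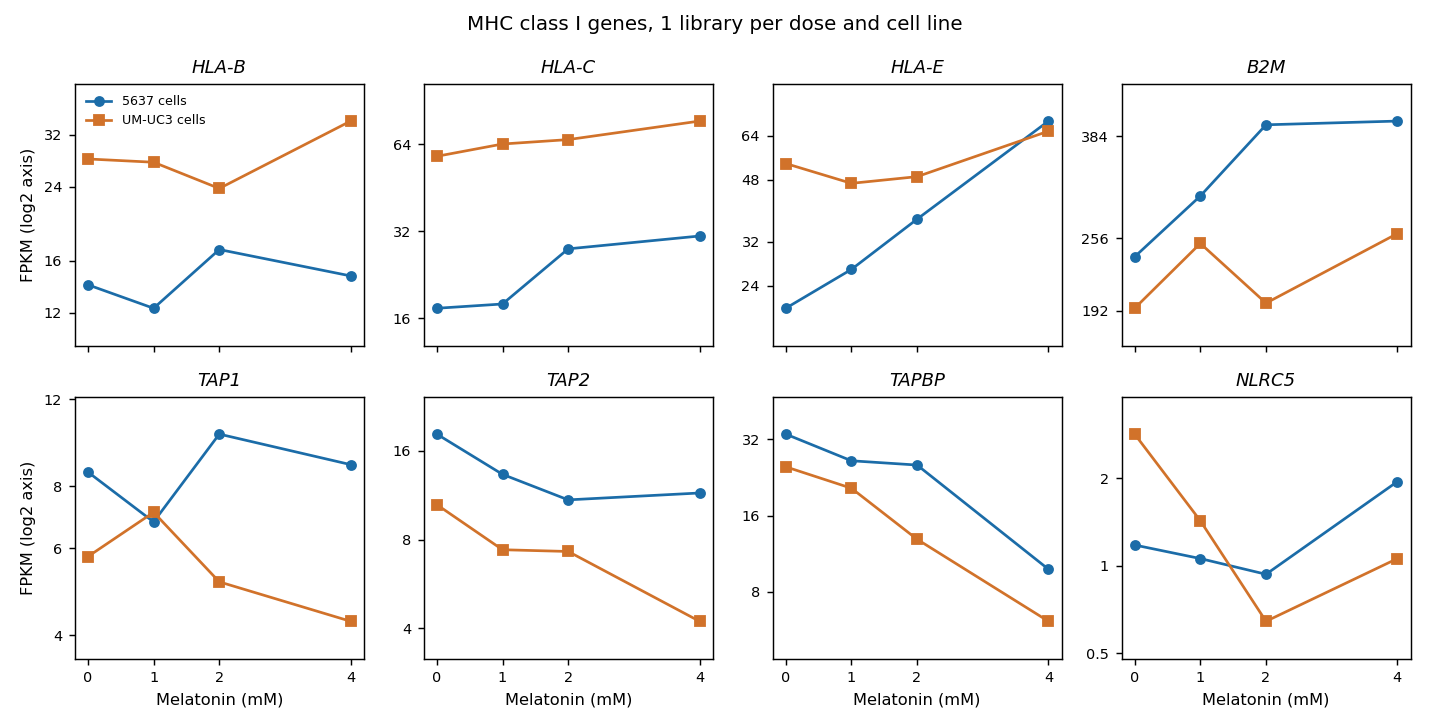
FPKM (log2 axis) of the 8 MHC class I genes against melatonin dose in mM, 1 point per library, circles for 5637 and squares for UM-UC3 cells. TAPBP declines at every dose step in both lines, and HLA-E runs from 20.7 to 70.5 FPKM in 5637 cells but from 46.9 to 66.0 FPKM in UM-UC3 cells.

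HLA-E, a heavy chain of little polymorphism that binds leader peptides of other class I chains and is read by the NKG2A receptor of natural killer cells, had the largest fitted change of the 3 heavy chains. In 5637 cells its level was 20.7, 26.7, 37.1 and 70.5 FPKM at 0, 1, 2 and 4 mM. In UM-UC3 cells it was 53.4, 46.9, 49.0 and 66.0 FPKM. The 5637 values climbed at every dose, to 3.41-fold of DMSO, while in UM-UC3 cells the doses of 1 and 2 mM lay below DMSO and 4 mM was 1.23-fold of it. Over both lines the fitted change was 1.05 ± 0.277 (SE, 8 libraries, adjusted p = 0.0238). This call was lost without the 5637 library at 0 mM (adjusted p = 0.0866), 1 mM (0.0504) or 4 mM (0.119).

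HLA-C, a classical heavy chain that serves T cells and the KIR receptors of natural killer cells, rose in both lines at every dose step. Its level was 17.3, 17.9, 27.8 and 30.8 FPKM in 5637 cells and 58.2, 64.2, 66.5 and 77.1 FPKM in UM-UC3 cells. The 4 mM library stood at 1.78-fold of DMSO in 5637 and 1.32-fold in UM-UC3 cells. The fitted change over both lines was 0.63 ± 0.178 (SE, adjusted p = 0.0305), close enough to the threshold that leaving out any one of 6 libraries ended the call. Those were 5637 at 0, 1 and 4 mM (adjusted p = 0.0962, 0.059 and 0.0954) and UM-UC3 at 0, 1 and 2 mM (adjusted p = 0.0535, 0.0523 and 0.0541).

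HLA-B, the other classical heavy chain in the set, showed no steady course. It measured 14.0, 12.3, 17.0 and 14.7 FPKM in 5637 cells and 28.0, 27.5, 23.8 and 34.5 FPKM in UM-UC3 cells. The 4 mM libraries were 1.05-fold and 1.23-fold of DMSO. The fitted change of 0.22 ± 0.185 (SE) did not pass the test (adjusted p = 0.397, 95% interval -0.20 to 0.64). In 5637 cells the highest HLA-B value came at 2 mM, and in UM-UC3 cells the lowest did.

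Heavy chain levels carry a limit of alignment. The class I genes are highly polymorphic and alike, and reads of each line's alleles were aligned to a single reference. In the reference transcripts (GENCODE v44) 30 of the 1487 windows of 50 bases in HLA-B occur in HLA-C, and 26 of the 1493 windows of HLA-C occur in HLA-E. In the deposited annotation the HLA-B model (chr6:31269491-31357188, minus strand) overlaps HLA-C (chr6:31268749-31272130, minus strand) by 2640 bases. How fragments in the shared stretches were divided was not tested, so HLA-B and HLA-C levels are uncertain, above all between lines. HLA-E lies apart, at chr6:30489509-30494194 on the plus strand.

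The 3 heavy chains together summed to 51.95, 56.91, 81.83 and 116.0 FPKM in 5637 cells, and to 139.6, 138.6, 139.3 and 177.5 FPKM in UM-UC3 cells. HLA-E made up 39.8%, 46.9%, 45.3% and 60.7% of this sum in 5637 cells and 38.3%, 33.8%, 35.2% and 37.2% in UM-UC3 cells. At 4 mM the heavy chain message of 5637 cells was thus mostly HLA-E, while in UM-UC3 cells HLA-C held the largest share at every dose (41.7% to 47.7%).

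B2M (chr15:44711487-44718877, plus strand), the shared light chain, was the most abundant of the 8 genes by far, ranking 137th by mean FPKM in the table. Its level was 238, 303, 402 and 408 FPKM in 5637 cells and 194, 251, 198 and 261 FPKM in UM-UC3 cells. The 5637 values rose to 1.71-fold of DMSO with most of the rise done by 2 mM, while the UM-UC3 values alternated. Over both lines the change of 0.54 ± 0.21 (SE) missed the threshold (adjusted p = 0.0878). B2M exceeded the summed heavy chains in every library, by 3.52 to 5.32 times in 5637 cells and 1.39 to 1.81 times in UM-UC3 cells.

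TAPBP (chr6:33299694-33314387, minus strand), which encodes tapasin, fell at every dose step in both lines. Its level was 33.5, 26.3, 25.3 and 9.83 FPKM in 5637 cells and 24.9, 20.5, 12.9 and 6.13 FPKM in UM-UC3 cells. The 4 mM libraries stood at 0.293-fold and 0.246-fold of DMSO. TAPBP fell by 1.79 ± 0.186 on the log2 scale over both lines (SE, adjusted p = 0.00145), a call that held without any single library. Without both 4 mM libraries together the change was -1.29 and no longer passed (adjusted p = 0.0695).

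TAP2 (chr6:32821833-32838770, minus strand), a subunit of the peptide transporter, also fell. It measured 18.2, 13.3, 10.9 and 11.5 FPKM in 5637 cells and 10.5, 7.39, 7.29 and 4.23 FPKM in UM-UC3 cells. In 5637 cells the level dropped up to 2 mM and then levelled, at 0.633-fold of DMSO at 4 mM, while UM-UC3 cells ended at 0.402-fold. The fitted change over both lines was -0.82 ± 0.201 (SE, adjusted p = 0.0182), and it was lost without 5637 at 0 mM (0.0593) or UM-UC3 at 0 mM (0.0657) or 4 mM (0.0588). A second annotated gene, AL669918.1, lies over TAP2 on the same strand for 16938 bases, at no more than 0.519 FPKM.

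TAP1 (chr6:32845209-32853978, minus strand), the partner subunit, did not follow TAP2. Its level was 8.55, 6.78, 10.2 and 8.85 FPKM in 5637 cells and 5.77, 7.09, 5.13 and 4.27 FPKM in UM-UC3 cells. The fitted change was -0.15 ± 0.229 (SE, adjusted p = 0.653, 95% interval -0.67 to 0.36). The ratio of TAPBP to TAP1 was 3.92 on DMSO and 1.11 at 4 mM in 5637 cells, against 4.33 and 1.44 for UM-UC3 cells, so tapasin message declined relative to the transporter subunit in both lines. TAP1 lies within PSMB9 on the opposite strand over 8770 bases in the deposited annotation. The library kit is directional, but no source used here gives the strand setting of the counting.

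NLRC5 (chr16:56989485-57083531, plus strand), the transactivator, was the scarcest of the 8, ranking 12024th. It measured 1.18, 1.06, 0.936 and 1.95 FPKM in 5637 cells and 2.84, 1.43, 0.645 and 1.06 FPKM in UM-UC3 cells. The 5637 values were flat up to 2 mM and highest at 4 mM, and the UM-UC3 values were highest on DMSO. The fitted change of -0.19 ± 0.36 (SE, adjusted p = 0.726) has a 95% interval of -1.0 to 0.62, so changes of either sign remain within it.

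Slopes were then fitted for each line. In 5637 cells HLA-E, HLA-C and B2M rose, by 1.74 ± 0.196, 0.88 ± 0.201 and 0.76 ± 0.254 (SE; adjusted p = 0.000174, 0.00607 and 0.0336), and TAPBP fell by 1.65 ± 0.235 (adjusted p = 0.00055). Of all genes tested 23% rose and 20.4% fell in this line, and 4 of 8 called is near the 43.3% of all genes called in either direction. The median slope was 0.32 for the 8 genes and 0.05 for all genes. The TAP2 slope was -0.57 (adjusted p = 0.0773). Dropping the top dose of 5637 cells ended all 4 calls, with an adjusted p of 0.0523 for HLA-E, 0.0816 for HLA-C, 0.0944 for B2M and 0.227 for TAPBP, whose slope then measured -0.79. B2M was also lost without 5637 at 0 mM (0.289) or 1 mM (0.0618) and without UM-UC3 at 0 mM (0.0518).

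In UM-UC3 cells TAPBP fell by 1.93 ± 0.235 and TAP2 fell by 1.07 ± 0.237 (SE, adjusted p = 0.000752 and 0.00911), and none of the 8 rose. Background shares were 16.7% falling and 12.5% rising, or 29.2% in either direction. The median slope was -0.10 against -0.04 over all genes. HLA-C (0.38, adjusted p = 0.177), HLA-E (0.36, 0.199), B2M (0.32, 0.386) and HLA-B (0.28, 0.414) had positive slopes whose 95% intervals held 0. By limma without adjustment 3 of the 8 had p under 0.05, TAPBP, TAP2 and NLRC5 (-0.84 ± 0.376, adjusted p = 0.12). The TAPBP call was lost without UM-UC3 at 4 mM (0.145) and the TAP2 call without UM-UC3 at 0 mM (0.0883) or 4 mM (0.395).

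**Figure D3:**
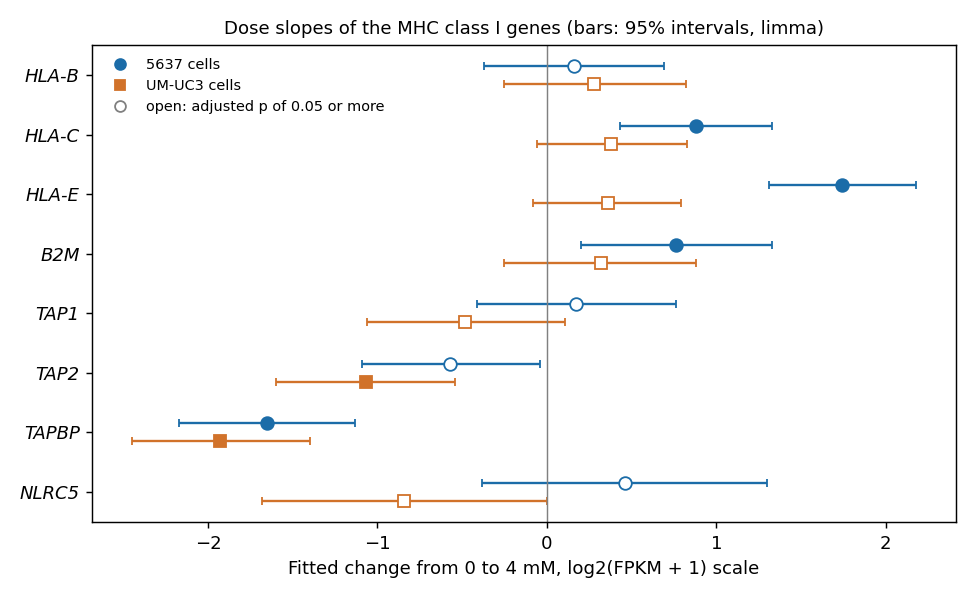
Fitted change of each gene from 0 to 4 mM on the log2(FPKM + 1) scale in 5637 (circles) and UM-UC3 cells (squares), with 95% intervals as bars and filled symbols where the adjusted p is under 0.05. TAPBP is left of 0 in both lines at -1.65 and -1.93, and the 2 intervals of HLA-E do not meet.

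The difference between the slopes was tested directly. HLA-E was the only one of the 8 whose slope differed, lower in UM-UC3 than in 5637 cells by -1.39 ± 0.278 (SE, adjusted p = 0.00739). By the same rule 15.3% of all genes had a lower and 10.4% a higher slope in UM-UC3 cells, 25.7% in all. The HLA-E difference was lost without the 4 mM library of 5637 (adjusted p = 0.123) or of UM-UC3 cells (0.0654). For NLRC5 the difference was -1.30 ± 0.532 (adjusted p = 0.0971). The 95% intervals of the other differences all held 0, and that of TAPBP ran from -1.02 to 0.46 and that of B2M from -1.25 to 0.35, which leaves room for sizeable differences.

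Level between the lines, over 4 libraries each at matched doses, differed for 7 of the 8 genes, as for 66.6% of all genes tested (30% higher and 36.7% lower in UM-UC3 cells). HLA-C, HLA-B and HLA-E were higher in UM-UC3 cells by 1.5 ± 0.131, 0.92 ± 0.137 and 0.61 ± 0.205 (SE, adjusted p = 1.02e-05, 0.000278 and 0.0258). The HLA-C and HLA-B differences carry the limit of alignment given above, which the p-values do not measure. At 4 mM HLA-E was lower in UM-UC3 (66.0 FPKM) than in 5637 cells (70.5 FPKM). TAP2, TAPBP, B2M and TAP1 were lower there, with differences of -0.82 ± 0.148, -0.57 ± 0.138, -0.56 ± 0.155 and -0.55 ± 0.169 (adjusted p = 0.000937, 0.00504, 0.0104 and 0.0166). Of these 8 genes the heavy chains were thus higher, and B2M, TAP1, TAP2 and TAPBP lower, in UM-UC3 than in 5637 cells. Loading genes outside the set did not all share that direction. Of 5 chaperones and editors of the loading complex 3 were higher in UM-UC3 cells by the same rule (TAPBPL 1.58, CALR 1.5 and CANX 1.15). In that list 1 was lower (UGGT1, -0.52). The 4 values of each line did not overlap for HLA-B, HLA-C and TAP2, and did for the other 5. NLRC5 did not differ beyond its error (0.08 ± 0.267, adjusted p = 0.807). The HLA-E call was lost without any one of 5637 at 0, 1 or 2 mM or UM-UC3 at 0 or 1 mM (adjusted p between 0.0539 and 0.0813), and the TAP1 call without 5637 at 2 mM (0.0513).

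In order of median FPKM the genes ran B2M (353), HLA-E (31.9), TAPBP (25.8), HLA-C (22.8), HLA-B (14.3), TAP2 (12.4), TAP1 (8.70) and NLRC5 (1.12) in 5637 cells. In UM-UC3 cells the order was B2M (224), HLA-C (65.3), HLA-E (51.2), HLA-B (27.7), TAPBP (16.7), TAP2 (7.34), TAP1 (5.45) and NLRC5 (1.25). In 5637 cells the range of TAPBP over the 4 doses overlapped those of HLA-E, HLA-C, HLA-B, TAP2 and TAP1, HLA-C overlapped HLA-E and TAP2, and HLA-B overlapped TAP2. In UM-UC3 cells HLA-C overlapped HLA-E, and from HLA-B through TAPBP and TAP2 to TAP1 each gene overlapped the next.

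Across the 8 libraries, with the mean of each line removed, Pearson's r was 0.887 for HLA-C with HLA-E, 0.876 for HLA-C with B2M and 0.811 for TAP2 with TAPBP. It was -0.772 for HLA-E with TAPBP and -0.789 for B2M with TAP2. B2M was not itself called over both lines. These are descriptions over 8 libraries that share the 4 doses, so they restate the dose trends above. The genes outside the set most like the mean of its 8 members were IFIH1 (r = 0.967), NDUFV3 (0.962), JUP (0.953), SH3KBP1 (0.95) and RHOC (0.95). They were picked as the highest correlations among all other genes tested. That mean mixes members that rose with members that fell, so nothing is read from the likeness.

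Other genes of the pathway were read from 11 lists. Peptide loading and supply were followed first. Of 5 chaperones and editors of the loading complex TAPBPL fell over both lines (-1.02, adjusted p = 0.0169) and none rose, 1 call beside the 24.9% of all genes called in either direction. TAPBPL encodes TAPBPR, a tapasin relative that edits peptides, and its level was 1.63, 1.48, 1.27 and 0.75 FPKM in 5637 cells and 7.90, 8.32, 6.03 and 2.52 FPKM in UM-UC3 cells. The call was lost without UM-UC3 at 4 mM (-0.61, 0.0538). Calreticulin (CALR) was called in UM-UC3 cells alone, at -1.15 (adjusted p = 0.0234, and 0.55 without the 4 mM library), and the difference of its slopes was not called (adjusted p = 0.0572).

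Of 9 peptide trimming enzymes ERAP2 fell over both lines, where 12.8% of all genes fell, and none rose. ERAP2, an aminopeptidase that trims peptides in the endoplasmic reticulum, measured 13.0, 8.80, 5.86 and 2.27 FPKM in 5637 cells and 5.02, 3.35, 1.83 and 1.11 FPKM in UM-UC3 cells. Each dose step lowered it in both lines, with a fitted change of -1.81 ± 0.203 (SE, adjusted p = 0.0018) that no single library ended. ERAP1, its partner enzyme, stayed between 10.4 and 11.7 FPKM in 5637 cells. In UM-UC3 cells ERAP1 read 23.8, 23.8, 13.4 and 7.30 FPKM, and its slopes differed between the lines (-1.59, adjusted p = 0.00697). That difference was lost without the 4 mM library of 5637 (0.123) or UM-UC3 cells (0.21).

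Of 5 subunits of the immunoproteasome, the form of the proteasome induced by interferon gamma, and its activator 2 fell and 1 rose over both lines, beside the 24.9% of all genes called in either direction. PSMB10 fell by 1.44 ± 0.238 and PSMB8 fell by 0.94 ± 0.201 over both lines (SE, adjusted p = 0.00445 and 0.0109), while PSMB9 rose by 1.03 ± 0.223 (adjusted p = 0.0113). The level of PSMB10 was 6.13, 2.88, 2.68 and 1.16 FPKM in 5637 cells and 4.14, 3.95, 1.75 and 1.27 FPKM in UM-UC3 cells. PSMB8 measured 14.5, 8.09, 10.1 and 5.67 FPKM and then 8.39, 7.11, 5.83 and 4.27 FPKM in the same order. PSMB9 measured 1.8, 2.1, 3.11 and 4.88 FPKM in 5637 cells and 1.65, 2.62, 1.82 and 4.56 FPKM in UM-UC3 cells. No single library ended the calls of these 3 genes over both lines, but without both 4 mM libraries all 3 ended, at an adjusted p of 0.0625 for PSMB10, 0.196 for PSMB8 and 0.38 for PSMB9, whose change was then 0.64. PSMB9 and TAP1 share a promoter region, with start sites 488 bases apart, and overlap on opposite strands, so the PSMB9 level is uncertain. The activator subunits PSME1 and PSME2 were not called, nor were PSMB5, PSMB6 and PSMB7, the constitutive subunits, over both lines.

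**Figure D4:**
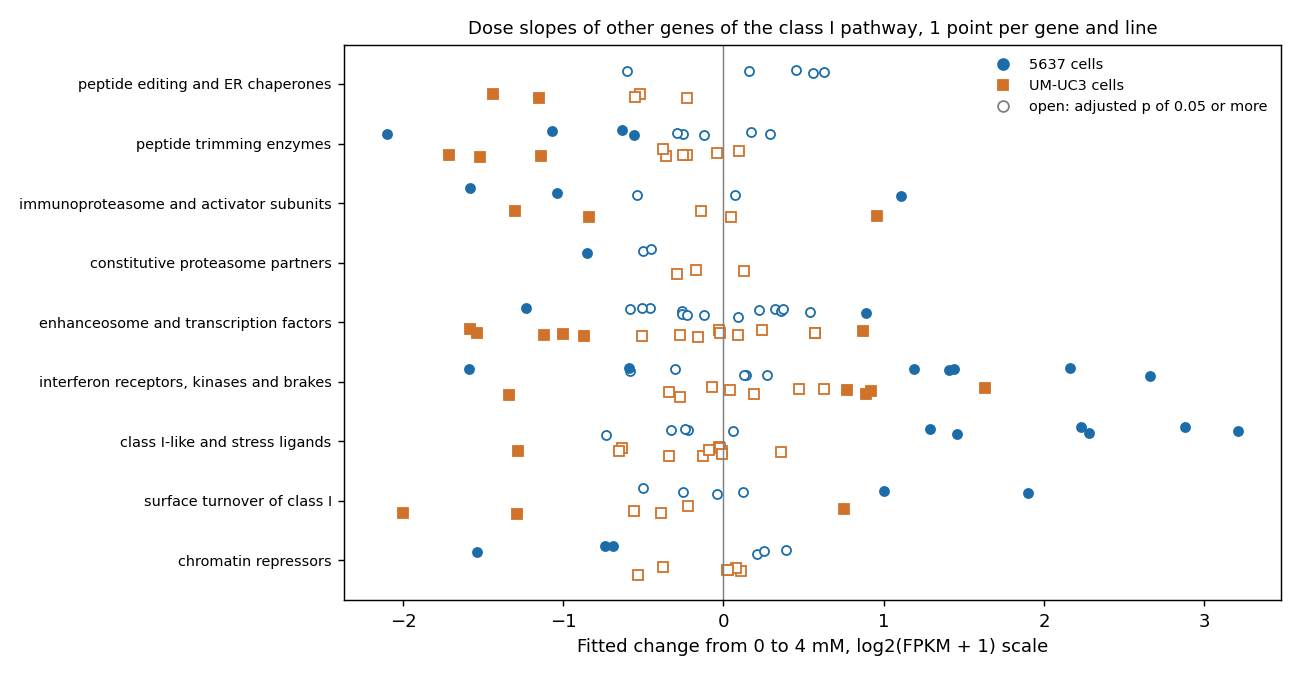
Fitted change from 0 to 4 mM on the log2(FPKM + 1) scale for the tested genes of 9 pathway lists, 1 point per gene and line, filled where the adjusted p is under 0.05. ERAP2 is the leftmost trimming enzyme in 5637 cells at -2.1, and the 6 filled points to the right in the stress ligand list are all from 5637 cells. ULBP2 and RAET1G among them passed the filter through 5637 cells alone.

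Among 15 transcription factors of class I promoters 1 rose and 2 fell over both lines, near the 24.9% of all genes called. NFYA, a subunit of the factor that binds CCAAT, rose by 0.73 (adjusted p = 0.0149). Its level was 19.7 FPKM on DMSO and 37.0 FPKM at 4 mM in 5637 cells, and 10.1 and 16.4 FPKM in UM-UC3 cells. NFKB1, which encodes the p105 and p50 forms of NF-kappaB, fell by 1.18 (adjusted p = 0.00207). Its level was 20.0 and 7.75 FPKM at those doses in 5637 cells and 15.9 and 6.98 FPKM in UM-UC3 cells. ATF1 fell by 1.03 (adjusted p = 0.0158). The NFYA call was lost without 5637 at 4 mM (0.0651), the ATF1 call without UM-UC3 at 4 mM (-0.63, 0.0512), while no single library ended the NFKB1 call, which was lost without both 4 mM libraries (0.069). NFYB was at -0.63 (adjusted p = 0.0505). In UM-UC3 cells 5 of the 15 fell (RFX5, RFXAP, NFYB, ATF1 and NFKB1), where 16.7% of all genes fell, and IRF1 rose by 0.87 (adjusted p = 0.0305), and each of these 6 calls ended without UM-UC3 at 4 mM. The IRF1 slope was then 0.06 (adjusted p = 0.996) and that of NFYB -1.51 (0.133).

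The 7 interferon genes read were low, and the IFNA family and IFNW1 were not analysed here. None of the 7 reached a mean of 1 FPKM, and 5 of them (IFNB1, IFNG, IFNL1, IFNL2 and IFNL3) were listed at 0 in all 8 libraries. IFNE was the highest, at up to 0.993 FPKM. Of 12 receptors, kinases and brakes of interferon signalling 4 were called as rising over both lines, SOCS1 among them, and none fell. Of all genes 12.1% rose and 12.8% fell. STAT2, part of the complex that binds the interferon-stimulated response element, rose by 1.04 and the kinase JAK2 by 1.11 (adjusted p = 0.00461 and 0.00833). SOCS1 and SOCS3 restrain JAK kinases, and SOCS3 rose by 1.39 (adjusted p = 0.0193). SOCS1 was called as well (1.79, adjusted p = 0.00881). It averaged 0.428 FPKM in UM-UC3 cells and passed the filter through 5637 cells alone, so its call is not read. SOCS3 was lost without 5637 at 0 mM (0.0613) or 4 mM (0.78, 0.0866), and no single library ended the calls of STAT2 and JAK2. Without both 4 mM libraries STAT2 and JAK2 were lost as well (0.0779 and 0.139), as was SOCS1 (0.115). SOCS1 measured 0.412 FPKM on DMSO and 7.51 FPKM at 4 mM in 5637 cells, and 0.064 and 1.03 FPKM in UM-UC3 cells. IFNGR1, a chain of the interferon gamma receptor, read 38.1 FPKM on DMSO and 24.2 FPKM at 4 mM in 5637 cells, but 12.7 and 42.9 FPKM in UM-UC3 cells. By line, 5 of the 12 rose and 2 fell in 5637 cells, where 23% and 20.4% of all genes did. In UM-UC3 cells 4 rose and 1 fell, beside 12.5% and 16.7%. Both counts of rises include SOCS1. IFNGR2 fell in 5637 cells from 36.6 FPKM on DMSO to 11.3 FPKM at 4 mM (-1.59, adjusted p = 0.0127 by limma, and 0.931 without 5637 at 4 mM). IRF9 fell in UM-UC3 cells from 2.87 to 0.462 FPKM (-1.34, 0.0072, and 0.106 or 0.0675 without UM-UC3 at 0 or 4 mM).

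Class II genes gave a contrast in level. CIITA, CD74 and 8 HLA class II genes all stayed under a mean of 1 FPKM, and their sum was at most 0.281 FPKM in 5637 and 2.39 FPKM in UM-UC3 cells. HLA-DMA was the highest of them in UM-UC3 cells, at 1.04 to 1.4 FPKM.

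Class I-like molecules and stress ligands numbered 16, of which 11 were tested. Of these 6 were called as rising in 5637 cells, where 23% of all genes rose. ULBP2 and RAET1G among them averaged 0.569 and 0.185 FPKM in UM-UC3 cells and passed the filter through 5637 cells alone. The rise is therefore read for MICA, MICB, ULBP1 and ULBP3 only. By limma 0 rose in UM-UC3 cells, with or without adjustment of the p-values at 0.05. Of the 11 genes 5 (ULBP2, RAET1G, RAET1L, FCGRT and MR1) had a mean under 1 FPKM in UM-UC3 cells. The pseudocount of 1 holds a slope near 0 there, so the UM-UC3 count rests on the other 6. The genes called in 5637 cells (MICA, MICB, ULBP1, ULBP2, ULBP3 and RAET1G) all encode ligands of NKG2D, an activating receptor of natural killer cells and T cells. MICA went 6.54, 7.77, 14.8 and 31.9 FPKM in 5637 cells and 10.5, 9.69, 8.62 and 10.3 FPKM in UM-UC3 cells. ULBP1 went 0.443, 1.11, 3.64 and 11.6 FPKM in 5637 cells and 4.92, 5.75, 6.26 and 5.01 FPKM in UM-UC3 cells. ULBP2 went 10.6, 14.7, 25.1 and 53.4 FPKM in 5637 cells, and was at most 0.847 FPKM in UM-UC3 cells. These 3 were higher at each dose in 5637 cells, with slopes of 2.23, 3.21 and 2.28. For MICA and ULBP1 the adjusted p by limma was 0.000101 and 3.79e-05. MICB, ULBP3 and RAET1G, named after their values were seen, had slopes of 1.29, 1.46 and 2.88 there. The slopes of ULBP2 and RAET1G are given as values only.

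Slopes of MICA, MICB, ULBP1 and ULBP3, which had means of at least 1 FPKM in both lines, were lower in UM-UC3 than in 5637 cells, by -1.41 (MICB) to -3.22 (ULBP1), where 15.3% of all genes were lower. ULBP2 and RAET1G averaged 0.569 and 0.185 FPKM in UM-UC3 cells and passed the filter through 5637 cells alone, so nothing is read from their slopes or slope differences. The 4 mM library stood at 5.05-fold of DMSO in 5637 and 1.94-fold in UM-UC3 cells for ULBP2, and at 13.0-fold and 0.713-fold for RAET1G. Without 5637 at 4 mM the rise in 5637 cells was still called for MICA and ULBP1, and for ULBP2, which is not read. It was lost for MICB (slope 0.67, adjusted p = 0.514), ULBP3 (0.50, 0.518) and RAET1G (1.48, 0.068). Without UM-UC3 at 4 mM none of the slope differences of MICA, MICB, ULBP1 and ULBP3 was called (adjusted p = 0.0595, 0.109, 0.0731 and 0.158). HFE, a class I-like regulator of iron uptake, averaged 2.26 FPKM in UM-UC3 and 0.704 FPKM in 5637 cells. It passed the filter through UM-UC3 cells alone, so its calls in UM-UC3 cells and over both lines are not read. Its slopes of -1.28 in UM-UC3 and -0.73 in 5637 cells, and its change of -1.0 over both lines, are given as values only. As background, NKG2A, which reads HLA-E, is an inhibitory receptor and NKG2D an activating one.

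**Figure D5:**
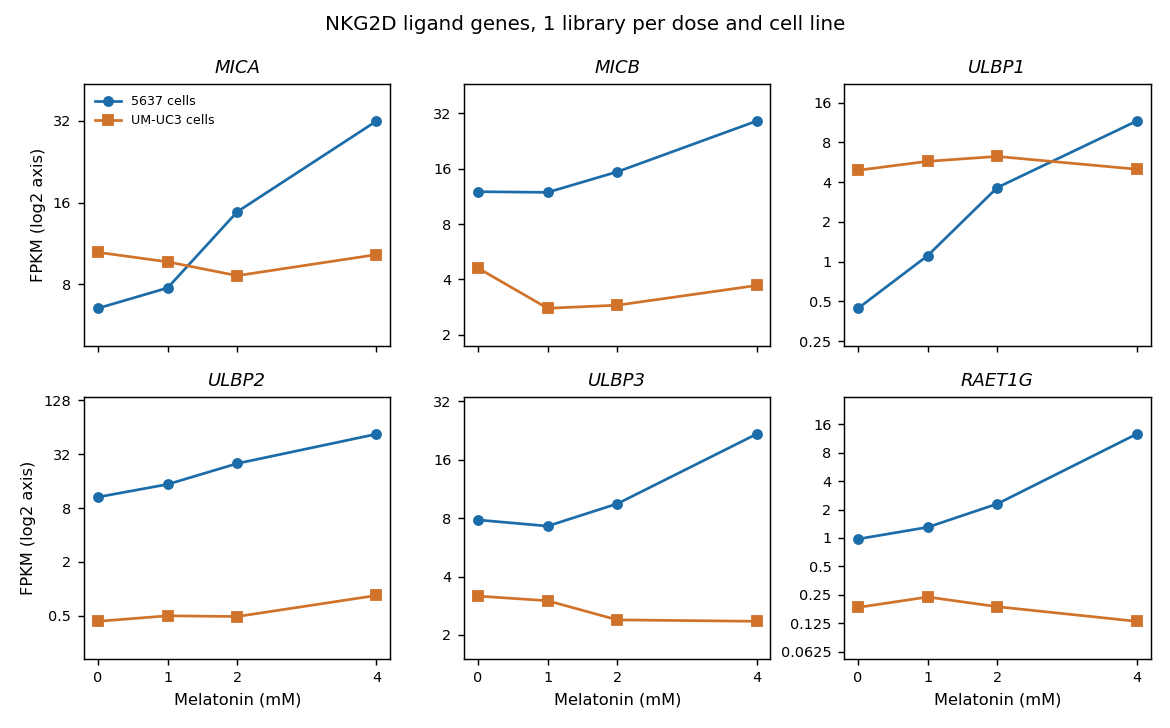
FPKM (log2 axis) of 6 NKG2D ligand genes against melatonin dose in mM, 1 point per library, circles for 5637 and squares for UM-UC3 cells. ULBP1 runs from 0.443 to 11.6 FPKM in 5637 cells but stays at 4.92 to 6.26 FPKM in UM-UC3 cells.

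Of 6 genes of class I turnover at the cell surface 1 rose and 1 fell over both lines, where 12.1% of all genes rose and 12.8% fell. SUSD6, part of a complex that sends class I molecules to lysosomes, rose over both lines by 1.32 (adjusted p = 0.0079), reading 5.91 FPKM on DMSO and 23.6 FPKM at 4 mM in 5637 cells and 2.55 and 4.90 FPKM in UM-UC3 cells. No single library ended that call, but it was lost without both 4 mM libraries (0.90, adjusted p = 0.138). TMEM127, of the same complex, rose in 5637 cells alone (1.0, adjusted p = 0.00156, and 0.132 without 5637 at 4 mM), and its slopes differed (-1.39, adjusted p = 0.0047, and 0.075 without 5637 at 4 mM or 0.155 without UM-UC3 at 4 mM). The ubiquitin ligase MARCHF9 fell over both lines (-1.25, adjusted p = 0.0459) and was lost without any one of 6 libraries, those of 5637 at 1 and 4 mM and all 4 of UM-UC3 (0.0725 to 0.21), its change being -0.68 without UM-UC3 at 4 mM. Of 6 chromatin repressors 1 fell over both lines, and 3 fell in 5637 cells (EED, DNMT1 and DNMT3A), where 20.4% of all genes fell, against 0 called by limma in UM-UC3 cells (2 with p under 0.05 before adjustment). Without 5637 at 4 mM these 3 calls ended, with slopes of -0.44 for EED, -0.15 for DNMT1 and -0.65 for DNMT3A. DNMT1, the maintenance DNA methyltransferase, fell by 0.61 over both lines (adjusted p = 0.0181), and was lost without 5637 at 4 mM (0.0742) or UM-UC3 at 0 mM (0.0521).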

How the data were processed

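The authors extracted total RNA, selected poly(A) RNA, made directional libraries and sequenced paired reads, which they trimmed with Cutadapt and Trimmomatic, checked for quality with FastQC and aligned with HISAT2 to GRCh38. StringTie, edgeR and CASAVA 1.8 appear in the submitters' processing notes with no role, and no source used here gives the annotation release. The deposited table holds 60612 genes with values read as FPKM, because the sheet names no unit, the columns are not whole numbers and they sum to 332961 to 395621. Depth is unknown, so no counting interval could be given. A second sheet repeats the values of 22465 genes and another sheet holds the authors' correlations between libraries. Neither was used.

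Values were tested as log2(FPKM + 1) with limma 3.58.1 (R 4.3.3, empirical Bayes with trend and robust), on the 12649 genes with a mean of at least 1 FPKM. Dose in mM was divided by 4, so a coefficient is the fitted change from 0 to 4 mM. The line was a term (5 residual degrees of freedom), or each line had its own slope (4). P-values were adjusted by Benjamini-Hochberg over all genes tested, with a threshold of 0.05. The pseudocount understates changes of low genes. The procedure was tested on simulated data. These held independent errors and straight-line changes in few genes, a setting unlike the measured data, so no support is drawn from that test. Tables and plots used Python 3.11.15, pandas 2.3.3 and matplotlib 3.10.9.

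The genes, lists and tests were chosen with earlier results of these data known. From each list up to 4 genes with the smallest p over both lines are named, and all those called in a direction with 5 or fewer calls. Likeness used Pearson's r on line-centred values. The alternatives were rescaling by trimmed mean factors, other filters and pseudocounts, other codings of dose, other limma settings, no line term and leaving out libraries.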

Additional observations from a re-analysis of the deposited data

Results flagged for a closer look

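These genes had dose slopes that differed between the lines by limma with adjustment over 12649 genes, as 25.7% of all genes did. Each value is the UM-UC3 slope minus the 5637 slope, as the change from 0 to 4 mM on the log2(FPKM + 1) scale. Among the 8 MHC class I genes it was HLA-E (-1.39, adjusted p = 0.00739). Over all genes the 3249 differences fell to 63 without UM-UC3 at 4 mM and 670 without 5637 at 4 mM. Of the 21 pathway genes below 1 was still called without UM-UC3 at 4 mM (IFNGR1, lost without 5637 at 4 mM at 0.0589), and 4 without 5637 at 4 mM (RFXAP, MICA, ULBP1 and ULBP2). ULBP2 among them passed the filter through 5637 cells alone and is not read. Leaving out 1 of the other libraries ended 1 to 6 of the 21 calls.

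Of the trimming enzymes ERAP1 (-1.59, adjusted p = 0.00697) and LNPEP (-1.31, 0.0193) had lower slopes in UM-UC3 cells. Of the transcription factors RFXAP (-2.12, 0.00424) and ATF1 (-1.03, 0.0371) were lower and IRF1 (1.45, 0.0181) higher. Of interferon signalling IFNGR1 was higher (2.21, 0.0024), and JAK1 (-1.36, 0.00583), IRF9 (-1.48, 0.0235) and SOCS3 (-1.53, 0.0286) were lower. SOCS1 (-1.74, 0.0104) averaged 0.428 FPKM in UM-UC3 cells, and its 4 mM library stood at 18.2-fold of DMSO in 5637 and 16.1-fold in UM-UC3 cells. With a pseudocount of 0.1, chosen for these genes after seeing the data, its difference was -1.29 (adjusted p = 0.139), so no difference is read for it.

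Of the NKG2D ligands MICA (-2.26, adjusted p = 0.00178), MICB (-1.41, 0.0306), ULBP1 (-3.22, 0.000946) and ULBP3 (-1.8, 0.00885) were lower in UM-UC3 cells. ULBP2 (-1.92, 0.0024) and RAET1G (-2.97, 0.00286) lay under a mean of 1 FPKM in UM-UC3 cells and passed the filter through 5637 cells alone, so no difference is read for them either. Also lower were SUSD6 (-1.15, 0.0253) and TMEM127 (-1.39, 0.0047) of surface turnover. Among chromatin repressors EZH2 was lower (-0.77, 0.0395), and EED (0.85, 0.0473) and DNMT3A (1.61, 0.0114) were higher. Without UM-UC3 at 4 mM the difference moved by over 1.5 times for LNPEP (-0.51), ATF1 (-0.64), IRF1 (0.64), IRF9 (-2.53), SOCS3 (-2.57) and MICB (-2.34), and MICB was -0.85 without UM-UC3 at 0 mM. Without 5637 at 4 mM it moved as far for SOCS1 (-0.88), RAET1G (-1.57), SOCS3 (-0.85), MICB (-0.80), ULBP3 (-0.84), SUSD6 (-0.50), EZH2 (-0.46), EED (0.55) and DNMT3A (0.72). With 1 library per dose and line, medium and line cannot be told apart in these differences.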

How the results depend on the processing

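Of 659 values of single class I genes under the alternatives, 564 kept their direction and their side of the threshold, 76 lost the call, 1 gained it (NLRC5 in UM-UC3 cells without both 4 mM libraries, -2.45, adjusted p = 0.0265) and 18 changed sign. The counts of called genes moved as follows. Over both lines 4 of 8 were called, against 1 with no filter (33317 genes tested) and 3 with the logarithm of dose. By limma 0 were called with melatonin at any dose against DMSO (1 at unadjusted p under 0.05), with 4 mM against DMSO alone (3), with no replicate block, that is no term for the cell line (2), and without both 4 mM libraries (4). Leaving out 1 library gave 1 to 4. Over all genes 3150 were called over both lines, against 1104 with no filter, 2172 with the logarithm of dose, 0 at any dose (947 unadjusted), 68 with 4 mM against DMSO alone, 3 with no line term and 351 without both 4 mM libraries. In 5637 cells the count of 4 became 0 at any dose against DMSO (0 at unadjusted p under 0.05) and 1 without both 4 mM libraries, and ranged from 0 to 4 without 1 library. In UM-UC3 cells the count of 2 became 1 with no filter and 0 at any dose against DMSO (1 unadjusted), and ranged from 0 to 2. The count of 1 differing slope became 0 with no filter (1 unadjusted), the logarithm of dose (2), any dose against DMSO (0) and without both 4 mM libraries (2), and ranged from 0 to 1. The count of 7 differing levels became 1 with 4 mM against DMSO alone and ranged from 5 to 7. No paired analysis was possible because the labels give no shared replicate numbers within a dose, so the line served as the block.

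The sign changes were all of values that had not passed the test. Leaving out 1 library, the values ranged for HLA-B from -0.44 to 0.51 in UM-UC3 cells and from -0.60 to 0.35 in slope difference, and for HLA-E from -0.24 to 0.67 in UM-UC3 cells. For NLRC5 they ranged from -0.34 to 0.77 in 5637 cells, from -0.19 to 0.35 in level and from -0.75 to 0.24 over both lines, for TAP1 from -0.30 to 0.09 over both lines, and for TAP2 from -0.87 to 0.30 in slope difference. HLA-B in UM-UC3 cells measured -0.44 without both 4 mM libraries and -0.44 without UM-UC3 at 4 mM, and its slope difference -0.04 at any dose, -0.98 without both 4 mM libraries, -0.25 without 5637 at 4 mM and -0.60 without UM-UC3 at 4 mM. HLA-E in UM-UC3 cells measured 0.00 at any dose and -0.24 without either both 4 mM libraries or UM-UC3 at 4 mM. NLRC5 in 5637 cells measured -0.34 without either both 4 mM libraries or 5637 at 4 mM, and without UM-UC3 at 0 mM its level difference was -0.19 and its change over both lines 0.24. TAP1 measured -0.01 in 5637 cells at any dose, and over both lines 0.08 without both 4 mM libraries and 0.09 without UM-UC3 at 4 mM. The TAP2 slope difference was 0.41 without both 4 mM libraries and 0.30 without 5637 at 4 mM. The cause was not tested.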
